A study of Rattus norvegicus with 5 samples.

Results

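Described here are 27 of 6118 probe sets tested on rat retinal Müller cells. They read at least 2-fold lower in cells of diabetic rats than in cells of normal rats, without overlap between the arrays. They were chosen by a rule on the measured values themselves. Both diabetic arrays had to lie below all 3 normal arrays, and the mean of the diabetic arrays had to lie more than 1 below the mean of the normal arrays on a log2 scale. That was met by 32 probe sets (0.523% of those tested), and 5 of them, of the genes Nrarp, Npy, Fos and Klf4, were left aside by name. A mean difference past -1 alone was met by 62, of which 30 had overlapping groups and were not chosen. The rule used every array of the only contrast in the series, so the differences below describe the probe sets and were not tested.

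The normal group comprised 3 arrays of Müller cells from healthy male Sprague-Dawley rats, each from the pooled retinas of 12 animals. For the diabetic group, 2 arrays carried RNA of Müller cells from the pooled retinas of 12 male rats of that strain. Diabetes had lasted 6 months after streptozotocin, a toxin of the insulin-producing cells, and the animals received small amounts of insulin, so the model is insulin-deficient diabetes under partial replacement. The second diabetic array is labelled a technical replicate, and its experiment record calls it a second run, so the diabetic side counted as 1 pool.

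Müller cells are the radial glia that span the retina. They take up glutamate and potassium released by neurons, secrete trophic and vascular factors, and answer injury or handling with a fast burst of immediate early genes. These genes encode transcription factors such as Jun, and phosphatases such as Dusp1 that switch the mitogen-activated kinases off again. The RNA came from pools of cells, so fewer cells of a type and less RNA per cell cannot be told apart.

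The 27 probe sets comprised 22 with 1 gene symbol, each of a different gene, and 5 with none in the annotation used. Signals below are normalised array signals on a linear scale with a floor of 20, in the order normal arrays 1, 2 and 3, then diabetic arrays 1 and 2. Differences are diabetic minus normal means of log2 signals, with the SD of the 3 normal pools. Over all 27 the differences ran from -1.84 to -1.004 with a median of -1.20, against a median of -0.01 over all tested probe sets.

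**Figure D1:**
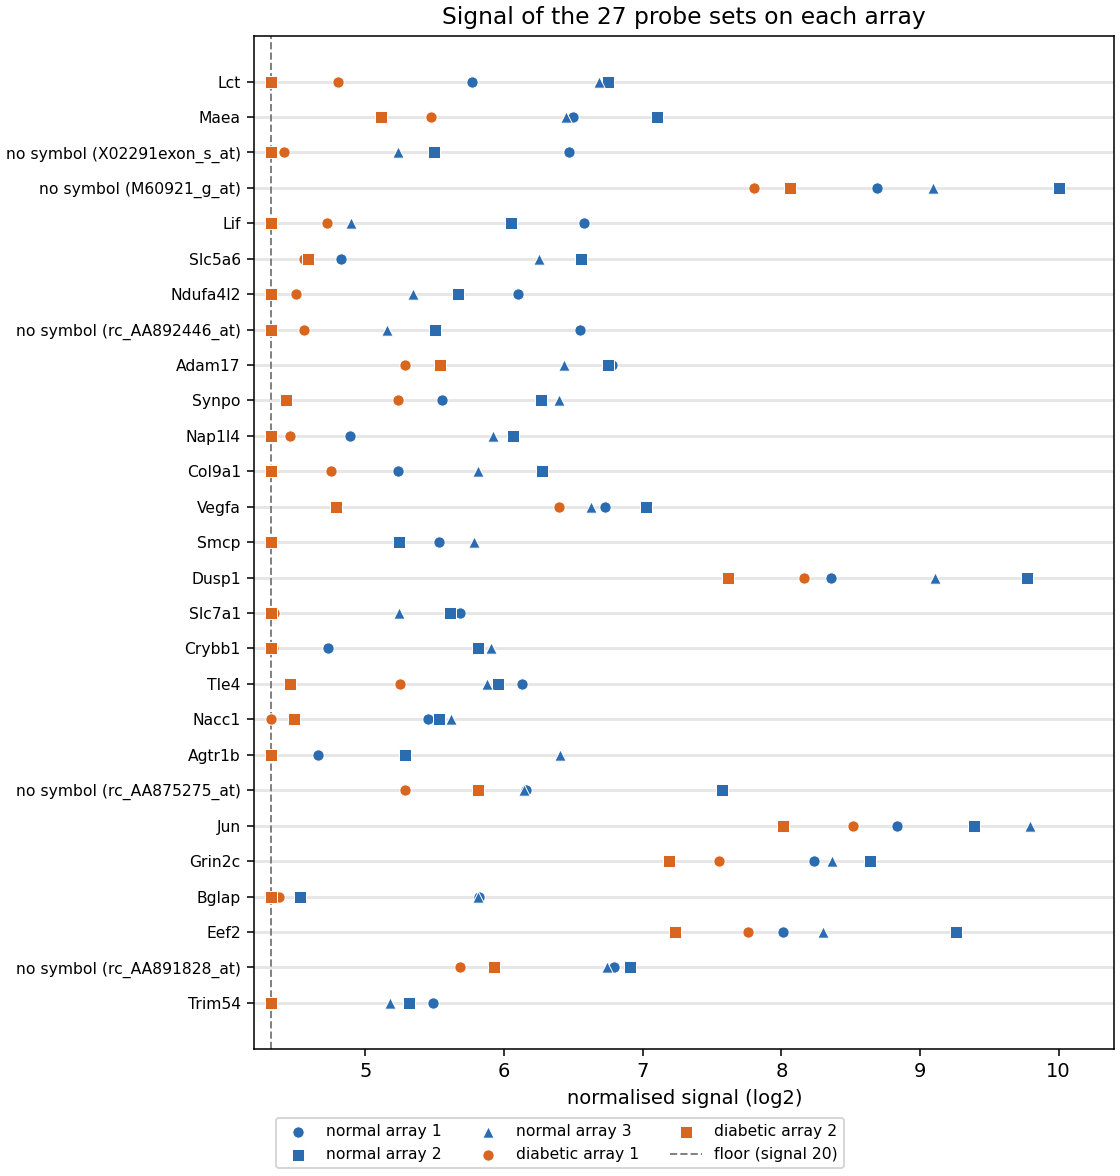
Normalised signal on a log2 axis for each of the 27 probe sets (rows, largest difference on top) on the 3 normal arrays (blue) and the 2 diabetic arrays (orange); the dashed line is the floor, a signal of 20. Each orange point lies left of all blue points of its row, as the rule demands, and 14 of the 27 rows have an orange point on the floor.

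Jun and Dusp1, both immediate early genes, were the brightest named members. Jun, a subunit of the transcription factor AP-1, had signals of 457, 671 and 889 in normal cells and 367 and 259 in diabetic cells (probe set X17163cds_s_at). The difference was -1.07 (SD 0.48, n = 3), a 2.11-fold lower mean, and the highest diabetic array stood close below normal array 1. Dusp1, the dual-specificity phosphatase that inactivates mitogen-activated kinases, read 327, 875 and 553 against 286 and 197 (S74351_s_at; difference -1.19, SD 0.71). Normal arrays 1 and 2 were farther apart for Dusp1 than normal array 1 was from either diabetic array.

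Both genes had further probe sets on the array, which the rule did not choose. For Dusp1 the pair S81478_s_at and U02553cds_s_at differed by -0.84 and -0.94, and on each of them both diabetic arrays again lay below all normal arrays. Jun had 3 more. rc_AA944014_at read 115, 202 and 132 against 77.1 and 72.1, without overlap and with a difference of -0.96. The probe set with the highest signals, rc_AI175959_at, read 1561, 2931 and 3003 against 1624 and 1499, and rc_AA945867_at read 153, 987 and 523 against 156 and 149. On both of these, normal array 1 was as low as the diabetic arrays and the contrast came from normal arrays 2 and 3. All 4 probe sets of Jun and all 3 of Dusp1 thus had lower diabetic means, from -0.62 to -1.50 and from -0.84 to -1.19.

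A probe set with no symbol, M60921_g_at, had the normal arrays in the same order as Dusp1, with signals of 413, 1026 and 545 against 224 and 267 (difference -1.33, SD 0.67). Its companion M60921_at, built on the same sequence entry, read 1051, 1784 and 919 against 637 and 652, also without overlap (difference -0.90). Normal array 2 was the highest array on both.

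Promoter windows were available from RefSeq (rat build GRCr8) for 19 of the 22 genes, all but Maea, Lif and Jun, covering 250 bases before and 50 after each annotated start, in 20 windows. Each was searched on both strands for the letters of 7 motifs. The cyclic AMP response element TGACGTCA was found for Dusp1 and Eef2, 2 of 19 genes, against 1.83% of 33469 windows of all genes. The E-box CACGTG was found for Dusp1, Eef2 and Slc5a6 (6.42% of all windows). Stretches of these 3 promoters before the start are shown because they hold those matches, in capitals. The Dusp1 stretch is chr10:17184699-17184781 on the plus strand, the Eef2 stretch chr7:9189239-9189344 on the minus strand, and the Slc5a6 stretch chr6:31040181-31040246 on the plus strand.
Dusp1: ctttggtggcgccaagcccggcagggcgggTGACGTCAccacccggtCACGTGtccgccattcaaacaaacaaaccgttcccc
Eef2: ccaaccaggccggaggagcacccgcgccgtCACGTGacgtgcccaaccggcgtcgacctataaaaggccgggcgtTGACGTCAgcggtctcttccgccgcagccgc
Slc5a6: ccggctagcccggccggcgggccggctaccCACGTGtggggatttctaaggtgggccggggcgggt

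Dusp1 and Eef2 each carry both words within a short stretch. The share of all windows that hold both words is not given here, so this pairing has no background to be read against. The AP-1 words TGACTCA and TGAGTCA were in the window of Smcp alone (4.63% of all windows), and the serum response core CATATTAGG was in none of the 19 genes' windows (0.0956% of all windows). The GC box GGGCGG was found for 9 of 19 genes (33.1% of all windows), the CCAAT box CCAAT for 8 (37.5%) and the CSL word TGGGAA for 5 (25.7%). These are matches of letters and were not tested as binding sites.

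Among secreted signals, Lif and Vegfa were members. Lif, leukaemia inhibitory factor, is a cytokine of the interleukin-6 family that retinal glia make after injury. Its signals were 95.4, 66.1 and 29.7 against 26.5 and 20 (difference -1.32, SD 0.86), so normal array 3 stood barely above diabetic array 1. Its difference was -0.78 when normal array 1 and diabetic array 2, which had a high 3' to 5' actin ratio, were both left out.

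Vegfa encodes the vascular endothelial growth factor that drives leakage and vessel growth in diabetic retinas, and its 4 tested probe sets differed among themselves. The member M32167_g_at read 106, 130.0 and 99.0 against 84.1 and 27.7 (difference -1.20, SD 0.20). Diabetic array 2 alone carried this difference, which was -0.41 without it and -1.99 without diabetic array 1. Its companion M32167_at, on the same sequence entry, read 38.9, 225 and 171 against 158 and 112, a difference of 0.21 in the other direction. L20913_s_at was at the floor on normal array 1 and diabetic array 2 (20, 278 and 203 against 83.1 and 20). Its difference was -1.35 with an SD of 2.07, and the groups overlapped. The probe set with the highest signals, rc_AA850734_at, read 185, 386 and 269 against 186 and 109, a difference of -0.91 with the groups just overlapping. Across these probe sets the order of the arrays changed, and M32167_g_at was the only one without overlap.

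Bglap, encoding the bone matrix protein osteocalcin, read 56.4, 23.1 and 56.1 against 20.8 and 20 (difference -1.04, SD 0.74). Normal array 2 was almost as low as the diabetic arrays, and the gap between the groups, 0.15 on the log2 scale, was the smallest of all members. The difference was -0.67 without normal array 3 and -1.56 without normal array 2.

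Cell surface proteins were the next group. Adam17, the membrane protease that releases tumour necrosis factor and cuts the Notch receptor, read 109.9, 108 and 86.5 against 39.1 and 46.4 (difference -1.24, SD 0.19). Its normal arrays were close together and its difference stayed between -1.11 and -1.39 when any 1 array was left out. Yet 2 further probe sets on the same sequence entry, from its untranslated part and without a symbol in the annotation, did not have lower diabetic means. AJ012603UTR#1_at, brighter than the member in normal cells, read 260.4, 166 and 131 against 189 and 168, a difference of 0.00. AJ012603UTR#1_g_at read 40.6, 136 and 136 against 151 and 116, a difference of 0.54. The groups overlapped on both. Grin2c, the GluN2C subunit of the NMDA-type glutamate receptor, had signals of 302, 399 and 329 against 187 and 146 (difference -1.04, SD 0.21). The other probe set of Grin2c, U08259_r_at, overlapped between groups (52.1, 65.7 and 100.3 against 59.0 and 43.4; difference -0.47).

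Agtr1b, a type 1 angiotensin II receptor, was recorded at 25.2, 38.9 and 84.8, with both diabetic arrays at the floor, so its mean was at least 2.18-fold lower on this scale. Its difference of -1.13 rested largely on normal array 3 and was -0.47 without it. This probe set carries the suffix f, which marks probes shared by a sequence family, and Agtr1b has a close paralogue, Agtr1a. The other tested Agtr1b probe sets, M90065cds_f_at and S61896_f_at, had higher diabetic means (0.26 and 0.64), so the identity and direction of Agtr1b are uncertain.

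The transporters Slc7a1 and Slc5a6 behaved differently across their probe sets. Slc7a1 carries arginine and other cationic amino acids into cells. Its member probe set U70476_at read 51.3, 48.9 and 37.9 against 20.2 and 20 (difference -1.18, SD 0.24). A separate probe set of the gene, L10152_s_at, read 42.0, 41.7 and 42.4 against 21.7 and 22.2, without overlap and with a difference of -0.93. Both sets of values lie near the floor, where folds are understated, and the remaining probe set of Slc7a1 was too dim to test.

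Slc5a6 is the sodium-dependent transporter of biotin and pantothenate. AF081204_s_at read 28.3, 94.2 and 76.3 against 23.5 and 24.1 (difference -1.31, SD 0.93), with normal array 1 close to the diabetic arrays. The brighter probe set AF026554_at read 180.4, 238 and 215 against 184 and 214. On that one the groups overlapped fully and the difference was -0.08.

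Several members encode nuclear proteins. Nacc1, a BTB-domain transcriptional regulator, had the tightest normal values of all members, 43.8, 46.3 and 49.1, against 20 and 22.4 (difference -1.13, SD 0.08). Tle4, a Groucho-family corepressor, read 69.9, 62.0 and 58.7 against 38.0 and 21.9 (difference -1.13, SD 0.13). For Tle4 diabetic array 2 was the lower by a wide margin, and without it the difference was -0.74.

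Nap1l4, a histone chaperone, was measured at 29.7, 66.9 and 60.7 against 21.9 and 20 (difference -1.24, SD 0.64). Its companion rc_AA799449_g_at, from the same sequence entry and several times brighter, read 261, 291 and 277 against 138 and 372. The 2 diabetic arrays thus lay on opposite sides of the normal arrays there, with a difference of -0.28. Maea, a subunit of a ubiquitin ligase complex that takes part in red cell maturation, read 90.2, 138 and 87.2 against 44.5 and 34.6 on rc_AA859829_at (difference -1.39, SD 0.37). The gap between the groups was 0.97, the widest among the members. Yet its companion rc_AA859829_g_at read 87.2, 92.1 and 163 against 80.7 and 134, a difference of -0.07.

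Eef2, the elongation factor that moves ribosomes along messenger RNA, read 257, 612 and 316 against 217 and 150.4 on rc_AA892801_at (difference -1.03, SD 0.65). Normal array 2 was the highest, and without it the difference was -0.66. Its 3 other probe sets had differences of -0.71, -0.63 and -0.32, and on 2 of them, rc_AA892801_g_at and rc_AI178750_at, the groups did not overlap. The probe set rc_AI178750_at, with normal signals of 1927, 2574 and 2096 against 1582 and 1923, is the brightest and showed the smallest difference.

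Synpo encodes synaptopodin, an actin-binding protein of dendritic spines and kidney podocytes. It read 46.9, 77.0 and 84.3 against 37.7 and 21.5 (difference -1.24, SD 0.46), and has no other probe set with its symbol. Ndufa4l2, a mitochondrial protein known to be induced by hypoxia, read 68.5, 50.9 and 40.6 against 22.6 and 20 on AA685376_f_at (difference -1.29, SD 0.38). The 3 other tested probe sets listed for Ndufa4l2 had higher diabetic means, by 0.16, 0.84 and 0.61. The member again carries the suffix f for a sequence family, so this value cannot be assigned to Ndufa4l2 with confidence.

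The remaining named members are known mainly from other tissues and were dim. Lct, the intestinal lactase, had the largest difference of all members, with 54.5, 108 and 103 against 27.9 and 20 (-1.84, SD 0.55, a 3.58-fold lower mean). A further Lct probe set, X56747cds_at, read 218, 95.0 and 59.0 against 65.6 and 110.5 and overlapped between groups (difference -0.33). Col9a1, a chain of the type IX collagen of cartilage and the vitreous, read 37.6, 77.5 and 56.3 against 26.9 and 20 (difference -1.24, SD 0.52).

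Crybb1, a beta crystallin of the lens, read 26.5, 56.1 and 59.8 against 20.2 and 20 (difference -1.15, SD 0.65). Without normal array 3 the difference of Crybb1 was -0.76. Another probe set of Crybb1 was at the floor on every array. Smcp, a protein of the sperm mitochondrial sheath, read 46.2, 37.9 and 55.0 with both diabetic arrays at the floor. Its mean was at least 2.29-fold lower on this scale. Trim54, a muscle RING-finger protein, read 44.8, 39.8 and 36.3, again with both diabetic arrays at the floor. Its mean was at least 2.01-fold lower on this scale. Both bounds concern the floor alone and not the scaling. On unscaled values the differences of Smcp and Trim54 were -0.88 and -0.70. For Crybb1, Smcp and Trim54 the whole contrast lay between the floor and a signal of 59.8. Before normalisation, 2025 to 3721 probe sets per array read below 20.

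The 4 other probe sets without a symbol can be given by name only. X02291exon_s_at read 88.6, 45.1 and 37.6 against 21.3 and 20 (difference -1.37), and rc_AA892446_at read 93.4, 45.4 and 35.6 against 23.6 and 20 (-1.29). Both were highest on normal array 1, as Lif and Ndufa4l2 were. rc_AA875275_at read 71.5, 190.5 and 70.8 against 39.1 and 56.1 (-1.08), and its difference was -0.60 without normal array 2. rc_AA891828_at read 111, 120.1 and 107 against 51.4 and 60.9 (-1.01, SD 0.09). The companion rc_AA891828_g_at of the last was at 25.2, 52.3 and 122 against 59.1 and 63.0, a difference of 0.16, so 1 of the 2 probe sets on that sequence showed no lower diabetic mean.

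**Figure D2:**
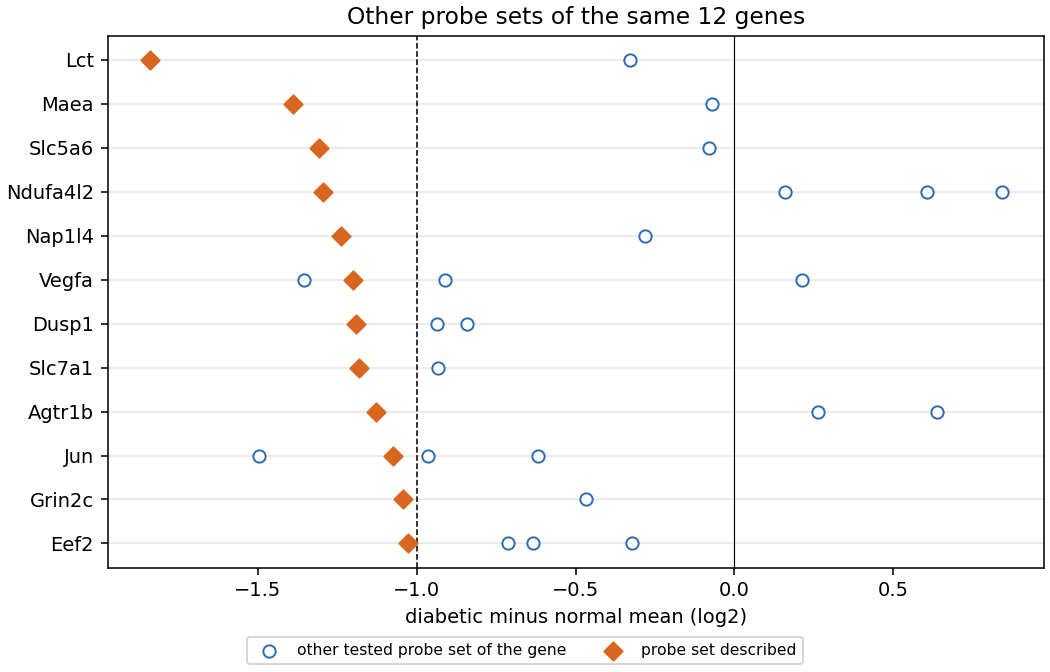
Difference of diabetic from normal mean (log2) for the 12 member genes that had other tested probe sets: the member (orange diamond) and every other tested probe set that carries the gene's symbol (open circle), with the rule's limit dashed at -1. The other probe sets of Jun, Dusp1, Slc7a1 and Eef2 all lie below 0, and those of Ndufa4l2 and Agtr1b all lie above it.

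Counted by gene symbol, 12 of the 22 genes had other tested probe sets, 22 in all. Of these 22 probe sets, 16 had a lower and 6 a higher diabetic mean, and their median difference was -0.40. With both Adam17 probe sets that lack a symbol added, 16 were lower and 8 higher, with a median of -0.33. On 6 the diabetic arrays lay below all normal arrays, where 7.01% of all tested probe sets did so. They come from Dusp1, Slc7a1, Jun and Eef2 alone. In 9 of the 12 genes the member was dimmer in normal cells than the brightest other probe set. These probe sets were read on the same 5 arrays as the members, so they repeat the measurement but not the animals.

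The members were dim as a set. Their median normal signal was 58.8, against 106 over all tested probe sets, and 7 of the 27 lay above that median. On 11 members 1 diabetic array was at the floor and on 3 both were, so their folds understate any larger change. Probe sets with the suffix s, which marks probes matching more than 1 transcript, made up 8 of 27 members (29.6%) against 16.8% of those tested.

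**Figure D3:**
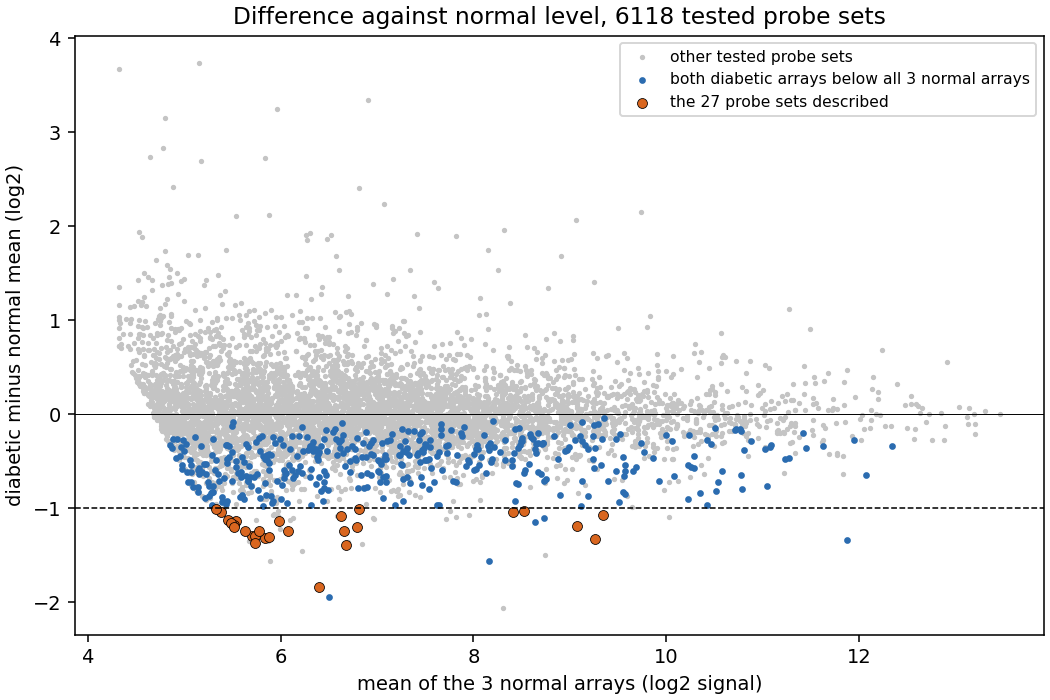
Difference of diabetic from normal mean (log2, vertical) against mean normal signal (log2, horizontal) for all 6118 tested probe sets; blue points are those with both diabetic arrays below all 3 normal arrays, orange points the 27 described, and the dashed line the rule's limit. Most orange points sit at the dim end, near the diagonal edge that the floor sets, and the 5 blue points below the dashed line are the probe sets left aside by name.

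The order of the arrays within each group was not used by the rule. Normal array 2 was the highest normal array for 12 of 27 members (44.4%) and the lowest for 2 (7.41%), against 28% and 29.3% over all tested probe sets. Normal array 1 was the lowest for 13 members (48.1%, against 38.8%). Diabetic array 2 was below diabetic array 1 for 18 members, equal at the floor for 3 and above for 6, where 46.9% of all tested probe sets had the lower value on array 2. The spread of the normal pools was larger in the members, with a median SD of 0.52 against 0.37 over all tested probe sets. This spread is not free of the rule either, which used the mean and the lowest of the normal values.

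Actin probe sets at the 3' and 5' ends of the transcript give a measure of RNA quality. Their ratio was high in 1 array of each group, with 2.61 for normal array 1 and 2.55 for diabetic array 2, and was 1.46 to 1.76 for the other 3. On those 3 alone, 20 of the 27 still met the rule, with a median difference of -1.19; Lif, Vegfa, Tle4, Grin2c, Bglap, Trim54 and rc_AA892446_at did not. In all, 227 probe sets met the rule on those 3 arrays, where fewer arrays have to be free of overlap. Each normal array had its own hybridisation day and chip lot, so pool, day and lot cannot be told apart in the normal spread. For diabetic array 1 neither is given. Normal array 3 and diabetic array 2 shared a hybridisation day and chip lot. Between these 2 the members differed by a median of -1.33 (range -2.36 to -0.34), with 19 of 27 past -1 and a median of 0.01 over all tested probe sets. The rule had already set diabetic array 2 below normal array 3 on each member. The sign of these differences was therefore fixed, and they are no separate check within the day.

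With each array scaled to a common median, 22 of the 27 met the rule. On the deposited values without scaling only Lct did. The arrays' median deposited signals were 40.9, 27.9 and 91.3 in the normal and 62.1 and 73.1 in the diabetic group, and the median difference of all tested probe sets was then 0.47. All 27 members lay below that median, with differences of -0.48 to -1.35. In 11 other settings of scale, floor, filter and left-out arrays, Maea and Adam17 met the rule in 10, Lct and M60921_g_at in 9, Bglap in 4 and Trim54 in 2.

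**Figure D4:**
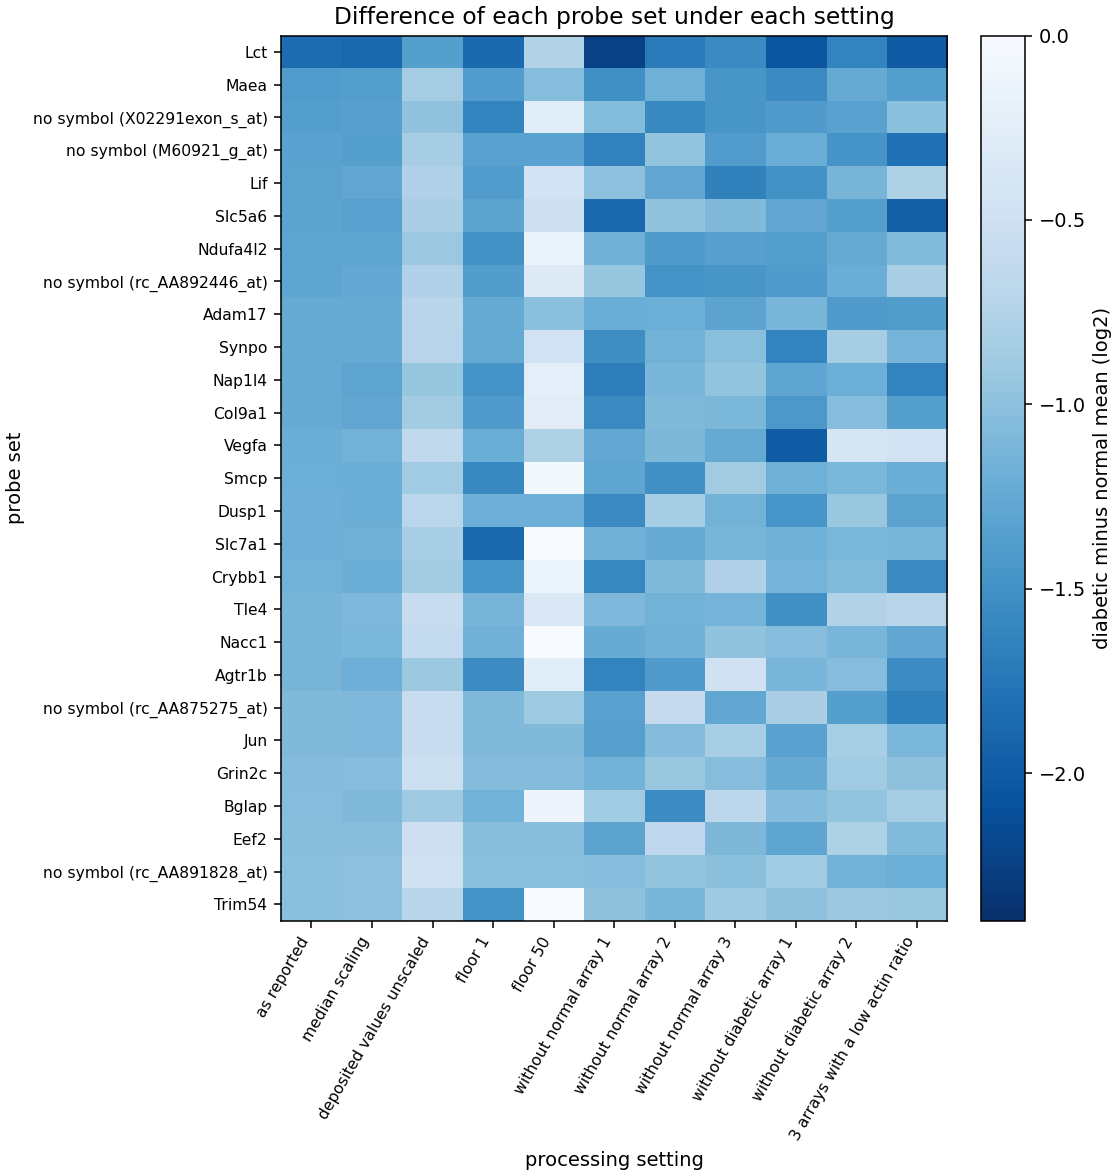
Difference of each of the 27 probe sets (rows) under the reported and 10 other settings of scale, floor and arrays (columns); darker blue is a larger negative log2 difference. Columns for median scaling and the reported setting look alike, the unscaled column is paler, and the floor of 50 brings the dimmest rows close to 0.

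Lower values were the rarer side of the comparison. For 9.53% of tested probe sets both diabetic arrays exceeded every normal array, against 7.01% with both below, and 118 exceeded a difference of 1 in that direction (1.93%), against the 32 below. The balance depended on the scale. Without overlap 583 lay above and 429 below as reported, 501 above and 346 below with median scaling, and 520 above and 13 below on unscaled values, where 300 of those above exceeded a difference of 1. In limma's fit over all 6118 probe sets, with the diabetic arrays as 1 pool, 0 passed an adjusted p of 0.05 in either direction (0% called), and 25 below and 73 above had an unadjusted p under 0.05. Together these unadjusted counts are a smaller share of the probe sets than the 0.05 that such a limit passes when nothing differs. No p of a member is given, since the members were chosen on this contrast. Just inside the limit lay Trim54 (-1.004), rc_AA891828_at (-1.01), Eef2 (-1.03), Bglap (-1.04) and Grin2c (-1.04). Just outside it, with arrays equally free of overlap, lay probe sets of Hes5, Apoa1, Kcna1, Ino80e and Robo2, all at -0.97, so membership near the limit separates values that differ by far less than the spread of the pools.

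Gene lists show where the named members stand among their relatives, each gene counted by the brightest tested probe set that carries its symbol. In a list of immediate early genes, 24 of 32 measured had lower diabetic means (75%, against 50.8% of 3623 genes). Without overlap, 8 lay below (25%, against 7.01% of genes) and 1 above (9.83% of genes). The list's median was -0.20, against -0.01 over all genes. Normal array 2 bore on this list. Without it 18 of 32 had lower diabetic means, where 1907 of 3623 genes did so. The median was then -0.08, against -0.02 over all genes, and without normal array 1 the list's median was -0.38. Those 8 were Arc, Dusp1, Fos, Homer1, Junb, Klf4, Nr4a1 and Zfp36. Jun was not among them on its brightest probe set, and Sgk1, a kinase induced by glucocorticoids, lay above (difference 0.73). Klf4 (-1.14) and Dusp1 (-0.84) had the largest lower differences of the list. Normal array 2 was the highest normal array for 7 of the 8, all but Homer1. Without that array 6 of the 8 shrank by over 1.5 times, namely Arc from -0.55 to -0.22, Dusp1 from -0.84 to -0.55, Junb from -0.31 to -0.10, Klf4 from -1.14 to -0.74, Nr4a1 from -0.61 to -0.28 and Zfp36 from -0.45 to -0.25. Homer1 went from -0.49 to -0.30 without normal array 1.

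In a list of Notch pathway genes, which holds the member Adam17, 11 of 16 had lower diabetic means (68.75%, against 50.8% of genes). Without overlap, 7 lay below (43.75%, against 7.01% of genes) and 2 above (12.5%, against 9.83%), and the median was -0.34. These 7 were Adam17, Hes1, Hes3, Hes5, Mfng, Notch2 and Nrarp. With Adam17 read on the brighter AJ012603UTR#1_at instead, 10 of 16 were lower, 6 lay below without overlap and the median was -0.29. With 1 array left out the list's median ran from -0.29 to -0.51, and the difference of Hes3 was -0.17 without normal array 1 (-0.37 with it). Hes1 and Hes5, transcriptional repressors induced by Notch, differed by -0.82 and -0.83, and Notch2 by -0.88. The receptor gene Notch1, read at 445, 423 and 611 against 461 and 604, had a difference of 0.12 and overlapped between groups. Nrarp (-1.10), a feedback inhibitor of the pathway, met the same limit as the members.

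Grin2c, Slc7a1, Lif and Vegfa stand on 3 other lists. Over all genes, 7.01% lay below and 9.83% above without overlap. Genes named from each list below have its largest differences, whether or not the groups overlapped. They overlapped for Adrb1, Slc6a9, Slc1a2, Tgfb3, Vegfa, Gal, Cacna1b, Timp3, Ccng1, Apod and Fdps. Neurotransmitter receptors, with Grin2c (-1.04), had 4 of 44 below and 2 above without overlap (median -0.09); Gabra3 (-0.88) and Adrb1 (-0.81) followed. Solute carriers had 5 of 37 below and 4 above (median 0.05), with Slc6a9 at 1.25, Slc1a2 at -1.10 and Slc7a1 at -0.93. Slc1a2 read 153, 85.2 and 72.0 against 20 and 104, so its diabetic arrays lay far apart. Growth factors and receptors had 2 of 43 below and 3 above (median 0.01), with Lif at -1.32, Tgfb3 at 1.17 and Vegfa at -0.91. The remaining lists hold no member. Without overlap, 1 of 17 neuropeptides lay below and 1 above (median 0.08; Npy -1.95, Sst 1.94, Gal -0.79). Among ion channels 2 of 36 lay below and 6 above (median 0.00; Kcnd2 1.17, Cacna1b 1.04, Kcna1 -0.97), and among matrix genes 2 of 29 below and 4 above (median 0.02; Spp1 3.15, Bcan -0.90, Timp3 -0.82). For cell cycle genes the counts were 1 of 17 below and 2 above (median -0.03; Ccnd2 1.06, Ccng1 -0.99, Ccnb1 0.81), and for lipid metabolism 2 of 25 below and 2 above (median -0.04; Fabp3 -0.67, Apod 0.66, Fdps 0.63). By limma, 0 genes of any list passed over all probe sets.

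Müller cells were checked by their markers. All 8 with a probe set were above the floor on at least 1 array, and their summed signal was 33127 to 43826 on normal and 38478 to 39633 on diabetic arrays. Of these, 6 had lower diabetic means (median -0.16), and the diabetic sums lay within the normal range. Rod and cone markers had higher diabetic means for 7 of 8, with the cone arrestin Arr3 at the floor throughout, and sums of 5042 to 11719 on normal against 14573 to 15056 on diabetic arrays. Microglial and leukocyte markers were higher for 9 of 10, with sums of 1473 to 1740 against 2065 to 2302. Over all genes with a tested probe set, 1782 of 3623 had higher and 1841 lower diabetic means. Sums of the other lists overlapped between groups, except pigment epithelium. Inner retinal neurons had 13 of 21 markers lower (sums 2743 to 3789 against 3100 to 3503; Syn2 at the floor throughout), endothelial cells and pericytes 6 of 8 (2524 to 3429 against 2423 to 2935; Des at the floor) and erythrocytes 1 of 3 (637 to 1180 against 951 to 968). The pigment epithelium rested on 1 gene above the floor, with Rpe65 at the floor throughout (70.3 to 149.7 against 221 to 260). The part of RNA from these other cells in the members' lower values was not tested.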

How the data were processed

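RNA was measured on 5 Affymetrix rat arrays, the maker given per the file headers. Each deposited value is the intensity of a probe set on a linear scale. No source used here gives the authors' summary method, software or scaling. The 8799 rows were quantile normalised over all arrays, floored at 20 and converted to log2. From the 8740 without the 59 controls, the dimmest 30% (by the average of both group means) were left out, leaving 6118. Equal distributions make every difference relative to the other probe sets of an array. The number of arrays limits the precision, and all spread comes from 3 normal pools, each on its own hybridisation day and chip lot.

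Members and gene lists were chosen with earlier results of these data known, so none of them is independent support. Named genes were the members with 1 symbol, the 5 probe sets on each side of the size limit, and, for each list, the 3 largest absolute differences. Genes without overlap on the immediate early and Notch lists, and Notch1, were named after their values were seen. Gene symbols are those of the platform's annotation table, which can be old. limma 3.58.1 under R 4.3.3 (lmFit, eBayes with trend, Benjamini-Hochberg) was fitted over all tested probe sets and tested on simulated data. Other steps used Python 3.11.15, numpy 2.4.6, pandas 2.3.3 and matplotlib 3.10.9. Alternatives varied the scaling, floor, filter, size limit and arrays. The lists with 1 array left out, and Adam17 on probe sets matched by sequence entry, were added after seeing the data. Promoters are those of the RefSeq table (GRCr8).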

Additional observations from a re-analysis of the deposited data

How the results depend on the processing

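The set depended on the processing. The rule chose 2 probe sets on unscaled values (1 of the 27), 8 with a floor of 50 (8 of the 27, median difference -0.45, since the higher floor compresses dim signals), 10 with the dimmest 50% left out (10 of the 27), 72 with a limit of 0.8 and 13 with a limit of 1.2 (13 of the 27). With 1 array left out it chose between 58 (without normal array 2) and 180 (without diabetic array 1), since fewer arrays have to be free of overlap, and 18 to 24 of the 27 were among them. Without both arrays of high actin ratio, a setting added after seeing the data, it chose 227. Median scaling, a floor of 1 and no filter kept 22, 27 and 27 of the 27. Dropping the filter can only add probe sets. No normal array of a member was at the floor, so a floor of 1 could only widen the differences. No member's difference changed sign under any setting run, though those of Nacc1 and Trim54 became 0 with a floor of 50. The rule set each diabetic value below each normal value, so a change of sign was hardly possible with arrays left out. Of 270 single differences, 223 moved by less than the SD of the normal pools. That SD is itself large where 1 normal array stands apart. Agtr1b (SD 0.89) counted as not moved at -0.47 without normal array 3.

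limma called 0 probe sets in the reported fit, 178 with a floor of 50 (which left all 8740 to test), 170 without a filter and 13 with the diabetic arrays as separate samples; its counts were 0 under the other settings run. Nearly all probe sets called with a floor of 50 or without a filter had higher diabetic means. So did all 13 called with the diabetic arrays as separate samples. No paired analysis was possible because the second diabetic array is a technical repeat and the labels pair no normal pool with the diabetic one.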
